A study of Mus musculus with 11 samples.

Results

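Many mammalian promoters start transcription in both directions, and on the side facing away from the gene the product is sometimes annotated as a long noncoding RNA (lncRNA) in its own right. Here, 243 such divergent lncRNAs were examined among 13088 genes counted over their exons in mouse embryonic stem cells. A lncRNA was included if its symbol did not begin with Snhg, it averaged 10 or more depth-normalized reads across the 5 libraries, and the start of an opposite-strand gene of the same table lay 0 to 1 kb upstream. That neighbour is called the partner. Of the partners, 235 were protein-coding and 8 were lncRNAs, and no lncRNA had more than 1. The 243 made up 31.5% of the 771 lncRNAs that reached the same mean. The partners' promoters were active in these cells, as far as exon reads show it: 239 of 243 partners had a mean of 10 or more reads and 227 had 100 or more.

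The assay was TT-seq (transient transcriptome sequencing). Cells take up 4-thiouridine (4sU) and the RNA made meanwhile is fragmented and pulled down. Wild-type F121-9 cells, a female embryonic stem cell line of CAST/129 hybrid background, were transfected with siRNA at 30 nM, either non-targeting (siNT, replicates 1, 2 and 3) or against Zc3h4 (siZC3H4, replicates 2 and 3). All were grown without serum, with LIF and inhibitors of MEK and GSK3, labelled with 500 µM 4sU over the last 20 minutes, and collected 47 hours after the siRNA was given. The design text calls the replicates biological, and the labels do not say whether separate cultures were grown, so p-values may in part measure technical spread. The DMSO and dTAG-13 samples of the series are not analysed here.

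The Restrictor complex of ZC3H4 and WDR82 is known to attenuate transcription of noncoding RNA early, before productive elongation. Divergent noncoding transcripts are commonly short-lived, and are cleared in the nucleus by the RNA exosome with its NEXT and PAXT adaptors, or terminated by Integrator and the cleavage and polyadenylation machinery. A coding gene on the other side of the same promoter is usually elongated in full. The comparison asked whether the annotated lncRNAs of this architecture changed when cells were treated with siZC3H4, and whether the genes that share their promoters changed with them.

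The starts of a pair lay between 52 and 915 bases apart, with a median of 203. Gm4419, 3110045C21Rik and Rsf1os2, which rose, and 4632427E13Rik, which did not pass the test, are shown with the stretch between the starts, because this is the promoter sequence that lies between the transcription units. Rsf1os2 was chosen after its values were seen. Each is written 5′ to 3′ on the strand of the lncRNA, ends at the base before its start, and is taken from RefSeq promoter windows of GRCm38.p6. Bases that RefSeq assigns to a coding gene were left off, and of Gm4419 the last 300 bases of the stretch are shown. Capitals mark CCAAT, the motif of the factor NF-Y, or its reverse complement ATTGG. The stretches lie at chr12:21417582-21417881 (plus strand, Gm4419, facing Ywhaq), chr1:169969243-169969450 (plus strand, 3110045C21Rik, facing Hsd17b7), chr7:97696607-97696656 (minus strand, Rsf1os2, facing Clns1a) and chr7:92741469-92741636 (minus strand, 4632427E13Rik, facing Rab30).
Gm4419: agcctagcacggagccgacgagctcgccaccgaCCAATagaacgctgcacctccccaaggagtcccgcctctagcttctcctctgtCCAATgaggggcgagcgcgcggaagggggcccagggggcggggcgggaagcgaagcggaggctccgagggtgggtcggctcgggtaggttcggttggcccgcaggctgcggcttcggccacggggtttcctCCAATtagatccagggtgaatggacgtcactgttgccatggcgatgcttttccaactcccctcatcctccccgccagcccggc
3110045C21Rik: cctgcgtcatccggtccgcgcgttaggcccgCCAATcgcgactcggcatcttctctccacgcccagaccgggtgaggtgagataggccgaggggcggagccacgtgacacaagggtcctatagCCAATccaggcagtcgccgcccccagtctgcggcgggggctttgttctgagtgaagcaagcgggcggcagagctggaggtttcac
Rsf1os2: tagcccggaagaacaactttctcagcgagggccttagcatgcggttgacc
4632427E13Rik: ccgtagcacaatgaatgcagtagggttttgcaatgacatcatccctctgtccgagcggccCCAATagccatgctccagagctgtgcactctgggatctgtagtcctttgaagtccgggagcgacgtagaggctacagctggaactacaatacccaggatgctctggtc
The first holds 3 CCAAT matches and the second 2, the third none and the fourth 1. Gm4419, 3110045C21Rik and Rsf1os2 rose, with log2 fold changes of 1.93, 1.91 and 1.32, while 4632427E13Rik stood at -0.04.

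The motif was counted over all pairs for which sequence was at hand. RefSeq windows covered the stretch between starts for 117 pairs, with a median GC content of 66.9%. CCAAT, searched on both strands, was in 34 of them: in 5 of the 15 whose lncRNA rose and in 29 of the 102 whose lncRNA did not pass the test. In windows of 300 bases around the partner's start, found for 197 partners, CCAAT was in 39.6%, against 37.4% of all 32851 mouse promoters in the RefSeq table. The other motifs searched in the same way, on both strands, were TATAAA (5.58% of partner promoters against 13.6% of all), the splice-donor-like GGTAAG (7.11% against 9.67%) and the polyadenylation hexamer AATAAA (5.08% against 19.6%). Partner promoters had a median GC content of 65.0% and all promoters 52.7%. These matches are descriptions of letters in the windows, and base composition differs between the sets.

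The libraries held between 14840637 and 26548710 exon reads, and every value below is a read count divided by the authors' depth factor for its library. Exon reads of Zc3h4 itself were higher in the libraries labelled siZC3H4, at 7285 and 6718, than in the siNT libraries, at 3465, 3610 and 3363. The change was 1.01 ± 0.11 on the log2 scale (SE, n = 3 and 2; limma, adjusted p = 0.00431; 0.0549 without siNT replicate 1 and 0.0578 without siZC3H4 replicate 2). An siRNA is meant to lower its target's RNA, and these reads do not show such a fall. They measure RNA made during labelling and not the RNA or protein present, so they cannot tell whether Zc3h4 was lowered. The groups are therefore named below by their labels only, and every direction given rests on those labels. Among 51 measured genes of the Restrictor and nuclear RNA decay machinery (the list held 54), Zc3h4 was the 1 gene that rose, none fell, and the median log2 fold change was 0.01. Wdr82 stood at 0.09, the exosome subunit Exosc3 at -0.03, the exosome helicase Mtrex at -0.06 and the termination factor Pcf11 at -0.02, none past the test. All 10 markers of naive embryonic stem cells were measured and none passed the test, with summed reads of 100283 to 121739 in siNT and 90621 to 108723 in siZC3H4 libraries. Of markers of other cells, 1 of 6 fibroblast and 1 of 4 trophoblast genes were in the table. Thy1 had 81.0, 135 and 87.9 against 99.0 and 76.5 reads, and Eomes 183, 173 and 200 against 228 and 168. Primitive endoderm markers were present at low level (4 of 5 genes, none past the test), with summed reads of 104 to 188 in siNT and 221 to 229 in siZC3H4 libraries. Only Pdgfra among them had separate groups, with 75.0, 47.0 and 82.8 against 125 and 107 reads. The groups of Gata6, Gata4 and Sox7 overlapped. The part of these markers in the results below was not tested.

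The divergent lncRNAs were higher in the libraries labelled siZC3H4. By limma with Benjamini-Hochberg adjustment over all 12482 genes tested, the count that rose was 37 of 243 (15.2%), none fell, and 206 stayed short of the threshold of 0.05, while over all genes tested 2.22% rose and 0.144% fell. The median log2 fold change of the 243 was 0.55, or 1.47-fold, with an interquartile range of 0.22 to 1.03, against a median of 0.01 over all genes. It lay above 0 for 219 lncRNAs (90.1%) and below 0 for 24. At an unadjusted p under 0.05, 114 were higher and 0 were lower, where 11.0% and 4.39% of all genes were. On the recovered reads, edgeR called 46 higher and 0 lower (2.76% of all genes higher), and DESeq2 called 56 higher and 0 lower (4.3% of all genes higher).

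**Figure D1:**
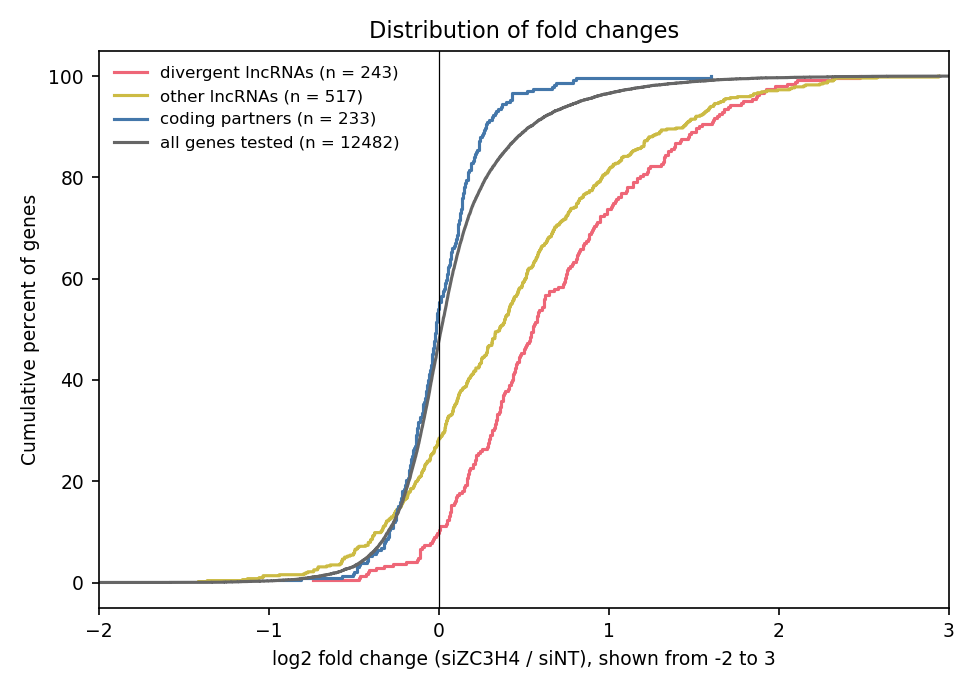
Cumulative distribution of the log2 fold change (siZC3H4 over siNT, horizontal axis, shown from -2 to 3) for the divergent lncRNAs, the other lncRNAs, the coding partners and all genes tested; the vertical axis is the cumulative percent of genes. The curve of the 243 divergent lncRNAs lies to the right of the others over most of its course, with its median at 0.55, whereas that of the 233 coding partners crosses 50% at -0.02.

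The number past the threshold depended on single libraries far more than the direction did. It was 37 with all 5 libraries, 0 when siNT replicate 1 was left out (98 at an unadjusted p under 0.05), 21 on leaving out siNT replicate 2 and 67 on leaving out siNT replicate 3. It was 1 when siZC3H4 replicate 2 was left out and 13 for siZC3H4 replicate 3. In the same order, the share of all genes that rose in these fits was 0.016%, 1.32%, 5.42%, 0.0801% and 0.641%. In each of those fits between 201 and 221 of the 243 lncRNAs lay above 0, and the median log2 fold change stayed between 0.54 and 0.57. With only 2 siZC3H4 libraries, a fit without either rests on 1 library, which is then assumed to vary like the others.

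Values in single libraries show the same shift. In 148 lncRNAs (60.9%) both siZC3H4 libraries lay above all 3 siNT libraries, where 19.5% of all genes tested did so, and in 5 (2.06%, against 12.8% of all genes) both lay below. The remaining 90 overlapped. The median lncRNA had 61.0, 60.9 and 64.8 reads with siNT, and 96.8 and 89.9 with siZC3H4. Reads summed over all 243 were 42271, 39800 and 46972 against 55899 and 57531, or 0.261% to 0.298% of exon signal in siNT and 0.372% in each siZC3H4 library. In 64 lncRNAs the change was at least 2-fold upward, and in none was it 2-fold downward, where 3.41% and 0.336% of all genes tested changed by as much. Of the 64, 34 did not pass the test. Among 517 lncRNAs of the same table that were not divergent by this rule (Snhg genes left out), 96 (18.6%) were at least 2-fold higher.

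Of those 517 other lncRNAs, 49 rose (9.48%), 1 fell and the median log2 fold change was 0.36. Among 1634 protein-coding genes that also had a divergent start within 1 kb, 48 rose (2.94%), 3 fell and the median was 0.02. The coding genes were at a higher level, with a median of 706 reads. The divergent and the other lncRNAs had median levels of 76.9 and 69.9 reads. Their median spans were 5860 and 5800 bases, and their median transcript lengths 1091 and 1310 bases. The difference in change between the lncRNA sets was not tested.

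The largest rise was that of 9330104G04Rik (chr7:16871347-16874802 in mm10, minus strand), whose partner Dact3 encodes an antagonist of Wnt signalling. With siNT it had 47.0, 37.4 and 27.3 reads, and with siZC3H4 253.5 and 169.2. The groups were far apart, and the change was 2.48 ± 0.30 on the log2 scale (limma, adjusted p = 0.00593). Dact3 itself had 75.0, 67.0 and 75.1 against 129.6 and 125.2 reads, which also did not overlap, and its change of 0.81 did not pass the test (adjusted p = 0.0964).

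Gm16343 (chr9:107575820-107587440, minus strand) starts 281 bases from Ifrd2, an interferon-related developmental regulator. Its reads were 23.0, 28.7 and 23.0 against 161.9 and 99.4, a change of 2.31 ± 0.30 (adjusted p = 0.00766). Both siZC3H4 libraries were well above the siNT libraries, which lay close together. Gm16343 runs across Hyal1, Hyal3 and Naa80 on the opposite strand. Ifrd2 stood at -0.07.

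Among the 10 largest rises, Frmd8os and Gm12758 are lncRNAs that face another lncRNA. Frmd8os (chr19:5845594-5851388, plus strand) starts 116 bases from Neat1, the architectural RNA of paraspeckles, and runs antisense to Frmd8. Frmd8os had 73.0, 70.4 and 79.4 reads with siNT and 373.5 and 274.4 with siZC3H4, a change of 2.09 ± 0.22 (adjusted p = 0.00355). Neat1 had 7220, 6686 and 9152 against 7032 and 8858, so its groups overlapped, at 0.05 ± 0.16. The ratio of Frmd8os to Neat1 within each library was higher in siZC3H4 by 2.04 ± 0.22 on the log2 scale (limma over all divergent pairs, adjusted p = 6.6e-04). Gm12758 (chr7:34234463-34240207, plus strand) and Gm12762 are each other's partner. Gm12758 had 81.0, 113.9 and 65.7 against 450.5 and 300.2 reads, and rose by 2.11 ± 0.28 (adjusted p = 0.00789). Gm12762 had 227, 192.2 and 209.9 against 459.5 and 355.6, and rose by 0.95 ± 0.18 (adjusted p = 0.0333). Both sides of that promoter were therefore higher, and Gm12758 by more than Gm12762: their ratio moved by 1.16 ± 0.30 (adjusted p = 0.0278). The third pair of this kind was chosen after its values were seen. Gm27017 had 47.0, 47.8 and 45.2 against 64.5 and 84.1 reads. Dleu2, a lncRNA gene named for its deletion in leukaemia, had 485, 487 and 653 against 430 and 576. Neither passed the test, nor did their ratio (0.76 ± 0.25, adjusted p = 0.0692).

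The other 6 of the 10 largest rises faced coding genes whose exon reads did not pass the test. Gm4419 (chr12:21417882-21419803, plus strand) had 119, 107.8 and 95.6 against 450.5 and 371.9 reads, and rose by 1.93 ± 0.20 (adjusted p = 0.00355). Its partner Ywhaq, which encodes a phosphoserine-binding adaptor protein, had 1433, 1360 and 1688 against 1380 and 1594 reads, with overlapping groups. 4930556M19Rik (chr15:10714865-10722211, plus strand) had 132, 127.8 and 177.5 against 502.5 and 561.2 reads, a rise of 1.87 ± 0.20 (adjusted p = 0.00414), beside Rai14, an actin-associated gene that stood at -0.29. Gm43077 had 28.0, 37.4 and 30.7 against 127.3 and 112.8 reads (1.88 ± 0.26), beside the RNA-binding protein gene Fxr1 at 0.34. In each of these pairs the siZC3H4 libraries were separate from the siNT libraries for the lncRNA.

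The remaining lncRNAs of that group were low. 3110045C21Rik had 11.0, 10.4 and 17.1 against 54.3 and 45.9 reads, and rose by 1.91 ± 0.35, beside Hsd17b7 of cholesterol synthesis at 0.14. 4930540M05Rik had 9.00, 11.3 and 11.9 against 43.0 and 35.4 reads, and rose by 1.78 ± 0.35, beside the recombination gene Rad52 at 0.10. Pmepa1os had 39.0, 29.6 and 28.2 against 161.3 and 85.1 reads, and rose by 1.84 ± 0.33. Its siZC3H4 libraries differed more from each other than those of the other 2. Its partner Pmepa1, an inhibitor of TGF-beta signalling, had 190, 134 and 233 against 276 and 301 reads, a change of 0.67 that did not pass the test.

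**Figure D2:**
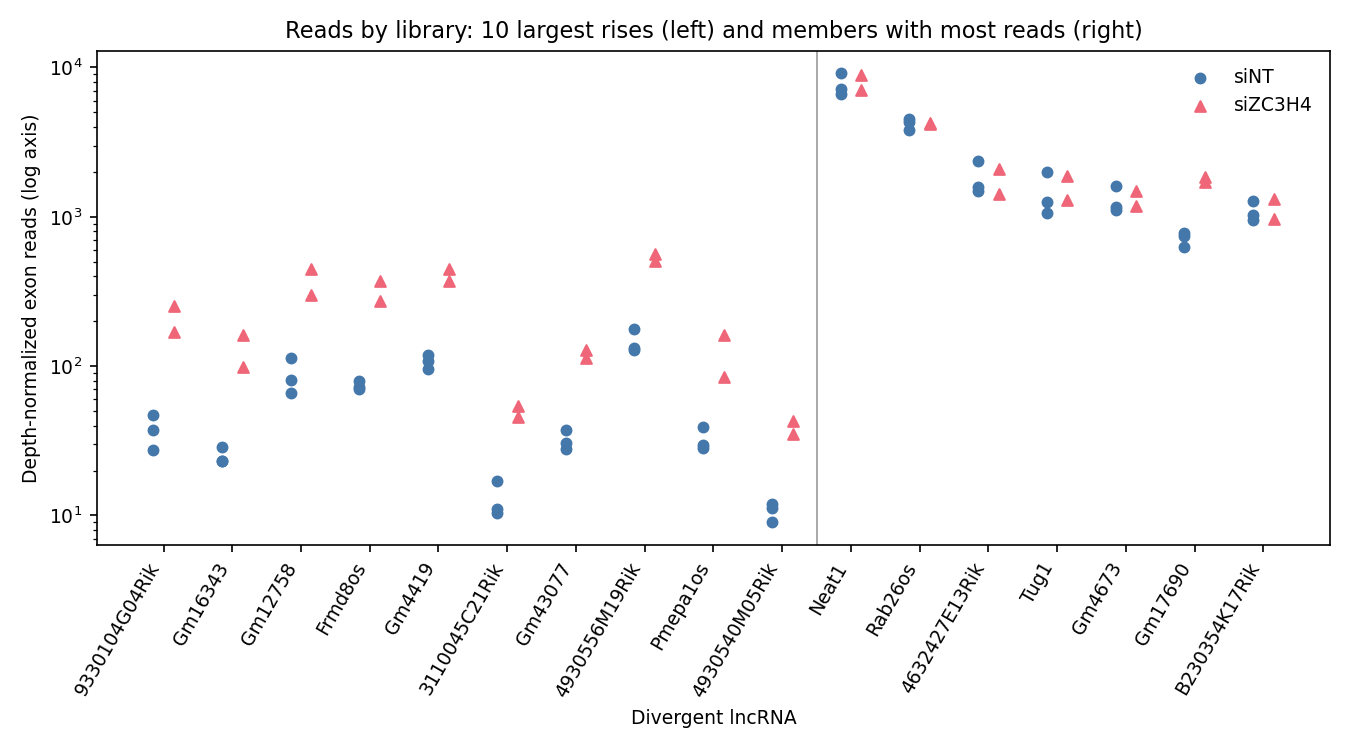
Depth-normalized exon reads (log axis) in each siNT (circles) and siZC3H4 (triangles) library for the 10 divergent lncRNAs with the largest rise, on the left, and for those with the most reads, on the right. On the left the triangles lie above the circles for each lncRNA; on the right they do so for Gm17690 alone, with 1845 and 1699 against 625 to 776.

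The most abundant divergent lncRNAs, which include those best known for functions of their own, mostly did not pass the test. Rab26os, with partner Traf7, had 4541, 3783 and 4299 against 4238 and 4175 reads and stood at 0.00 ± 0.12. RefSeq places a small nucleolar RNA of 78 bases inside it, so its reads may include that RNA. 4632427E13Rik had 1574, 1482 and 2358 against 1414 and 2088 reads (-0.04 ± 0.23), beside the small GTPase gene Rab30. Tug1, a widely expressed nuclear lncRNA, had 1257, 1057 and 1982 against 1303 and 1872 (0.18 ± 0.26), beside the epigenetic silencer Morc2a. In Neat1, 4632427E13Rik and Tug1 the highest of the siNT values was that of replicate 3, which was above both siZC3H4 values. Replicate 3 was also the higher of the siZC3H4 libraries in each of them.

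Gm4673 had 1604, 1113 and 1159 against 1499 and 1188 reads (0.07 ± 0.18), beside the transcription factor gene Usf2. B230354K17Rik had 1024, 953 and 1270 against 964 and 1325 (0.07 ± 0.18), beside the splicing gene Cdc5l. Gm17690 was the exception at this level. It had 776, 625 and 748 reads with siNT and 1845 and 1699 with siZC3H4, and rose by 1.31 ± 0.14 (adjusted p = 0.00431). Its partner Sf3b4, a subunit of the spliceosomal SF3b complex, had 2676, 2710 and 2469 against 2786 and 2454 reads. Gm17690 (chr3:96167464-96172391, minus strand) runs antisense to Mtmr11.

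**Figure D3:**
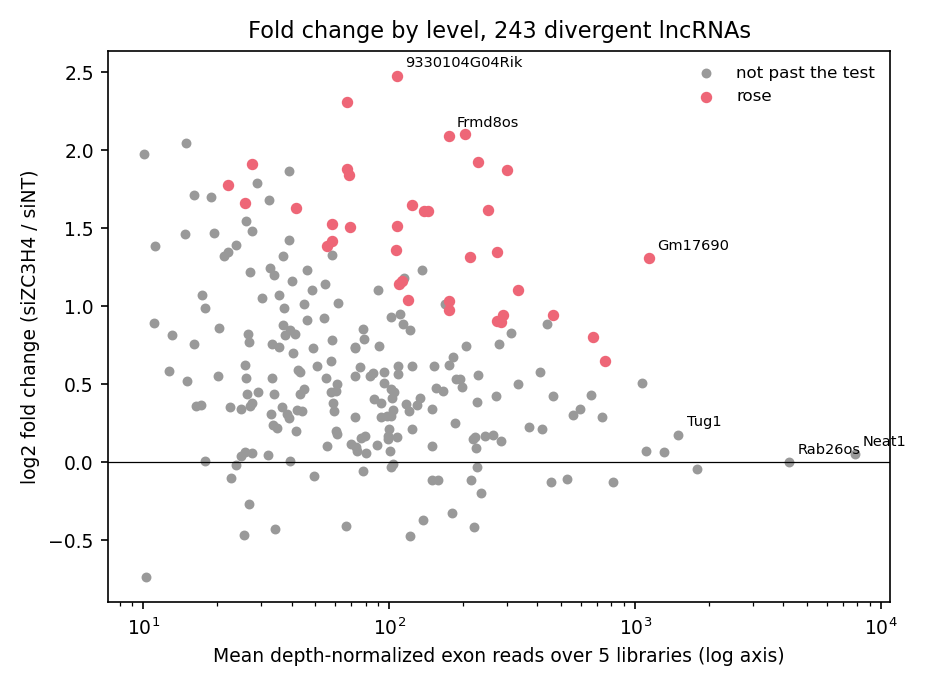
Log2 fold change (siZC3H4 over siNT) against the mean of depth-normalized exon reads over the 5 libraries (log axis) for the 243 divergent lncRNAs, with those that rose in red. Of the 8 lncRNAs with 1000 or more reads the 1 that rose is Gm17690.

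Across the 243 the median fold change went down with level. It was 0.76 for the 89 lncRNAs with 10 to 50 reads, 0.53 for 104 with 50 to 200, 0.43 for 42 with 200 to 1000 and 0.07 for 8 with 1000 or more. The share that rose did not run the same way, at 4.49%, 18.3%, 31.0% and 12.5%. The share with both siZC3H4 libraries above all siNT libraries was 62.9%, 60.6% and 64.3% in the first 3 bins and 25.0% (2 of 8) in the last. Spearman's rho of the fold change was -0.20 with the mean reads of the 5 libraries and -0.38 with the siNT mean, which enters the fold change itself; lncRNAs are not independent replicates. The minimum of 10 reads was set on the mean of all libraries, so a lncRNA low in siNT could enter only through its siZC3H4 reads, which raises the median of the lowest bin. There were 7 such lncRNAs with a siNT mean under 10, none of which rose. Without them the median was 0.66 over the 82 left in the lowest bin and 0.54 over the 236 left in all.

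Distance between the starts bore little relation to the change. The median log2 fold change was 0.51 for 33 pairs under 100 bases apart, 0.54 for 83 at 100 to 200, 0.60 for 62 at 200 to 300, 0.60 for 48 at 300 to 500 and 0.51 for 17 at 500 or more. Spearman's rho was 0.03. For genomic span it was -0.17 and for transcript length -0.06. The spans ran from 496 to 249724 bases, with a median of 5860, and the transcripts from 208 to 6568, with a median of 1091. All 243 spans exceeded the transcript length. Whether each lncRNA has an intron cannot be read from this, because 1 length is given per gene. The 41 lncRNAs spanning under 2 kb had a median fold change of 0.54 and the 36 spanning 20 kb or more had 0.52.

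Another gene on the opposite strand overlapped 51 of the lncRNAs and a gene on the same strand overlapped 1. Of the 191 that overlapped no other gene of the table, 29 rose (15.2%), the same share as in the whole set. RefSeq places a small RNA inside 7 of the 243, none of which rose. Among them is Gm26654, chosen after its values were seen, with 935, 714 and 883 against 733 and 804 reads, which holds a tRNA gene and whose partner 4930477E14Rik had at most 3.00 reads in any library.

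The 5 lncRNAs with both siZC3H4 libraries below the siNT libraries had small differences, none past the test; they are named here because of their values. 2310058D17Rik had 168, 157 and 161 against 149 and 151 reads, and 5430405H02Rik had 197, 176 and 216 against 151 and 162. Gm16537 had 45.0, 31.3 and 39.2 against 29.4 and 26.8, and Gm7160 had 25.0, 39.1 and 23.0 against 20.4 and 20.1. 5033430I15Rik, which faces Atxn1, had 12.0, 12.2 and 12.8 against 8.49 and 5.74, the lowest fold change of the set at -0.74 ± 0.41. Gt(ROSA)26Sor, the transcript of the widely used Rosa26 integration site, was chosen likewise and also stood below 0 (212, 232 and 291 against 149 and 222 reads, -0.42 ± 0.23), with overlapping groups.

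The genes on the other side of the promoters changed little. Of 233 coding partners tested, 1 rose and 1 fell (0.429% each), where 1.62% and 0.147% of all coding genes tested did so. The other 231 partners were not past the threshold, and the median log2 fold change of the 233 was -0.02. At an unadjusted p under 0.05, 12 were higher and 15 lower, where 11.0% and 4.39% of all genes tested were. Both siZC3H4 libraries lay above all siNT libraries in 33 and below them in 42 of the 233, where 17.5% and 13.2% of all coding genes tested did so. For the 33 coding partners of lncRNAs that rose, the median was -0.06 and the range -0.94 to 0.81. Spearman's rho between the fold changes of lncRNA and partner was 0.07 over 239 pairs, given as a description of values that share libraries.

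**Figure D4:**
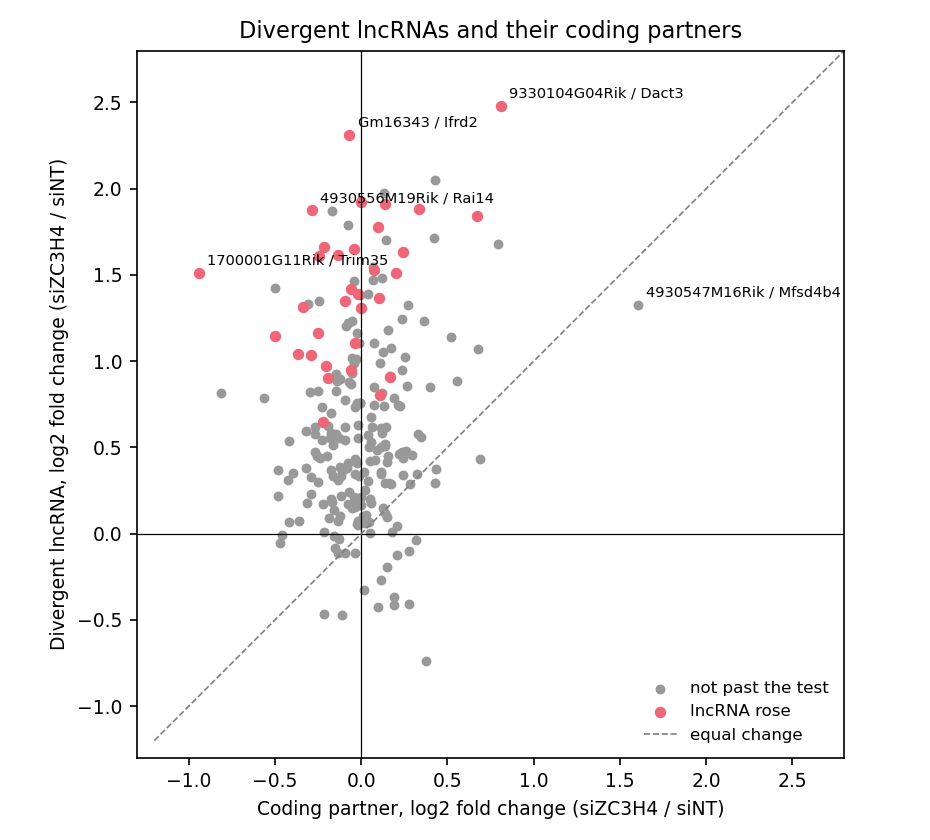
Log2 fold change (siZC3H4 over siNT) of the divergent lncRNA, vertical axis, against that of its coding partner, horizontal axis, for 233 pairs, with lncRNAs that rose in red. Most points (209 of 233) lie above the dashed line of equal change, with a median of 0.55 for all 243 lncRNAs and -0.02 for the partners. The pair with Mfsd4b4 is among those below the line.

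The lncRNA was then set against its own partner within each library, a ratio from which the depth factor drops out. Of 233 pairs with a coding partner, the ratio was higher in siZC3H4 in 74 (31.8%) and lower in none (limma over all 924 divergent pairs). At an unadjusted p under 0.05, 124 were higher and 4 lower, where 36.3% of all pairs passed in either direction. Over all 924 pairs 19.2% passed the test in either direction, and among 671 pairs of 2 coding genes 14.9% did. The ratio was above 0 for 209 pairs (89.7%), with a median log2 change of 0.60, or 1.51-fold. Without siZC3H4 replicate 2, 27 pairs passed the test, and the number lay between 27 and 83 over the fits without 1 library. The share of all 924 pairs past the threshold was not counted in those fits. Of the 33 lncRNAs that rose and had a tested coding partner, 31 were also higher in the ratio. A further 43 were higher in the ratio and had not passed the test on their own reads.

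Per kilobase of transcript, the median divergent lncRNA stood at 17.1%, 15.5% and 16.4% of its coding partner with siNT and at 28.9% and 25.6% with siZC3H4. The siZC3H4 libraries were both higher than all siNT libraries. The lncRNA exceeded its partner per kilobase in 19, 20 and 18 of 233 pairs against 31 and 31. Gm4419 went from 8.58% of Ywhaq in the siNT mean to 32.9% in the siZC3H4 mean, and 4930556M19Rik from 27.3% to 122% of Rai14. Lengths are those of the deposited table, and nascent exon reads also depend on introns and splicing, so these percentages are approximate.

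**Figure D5:**
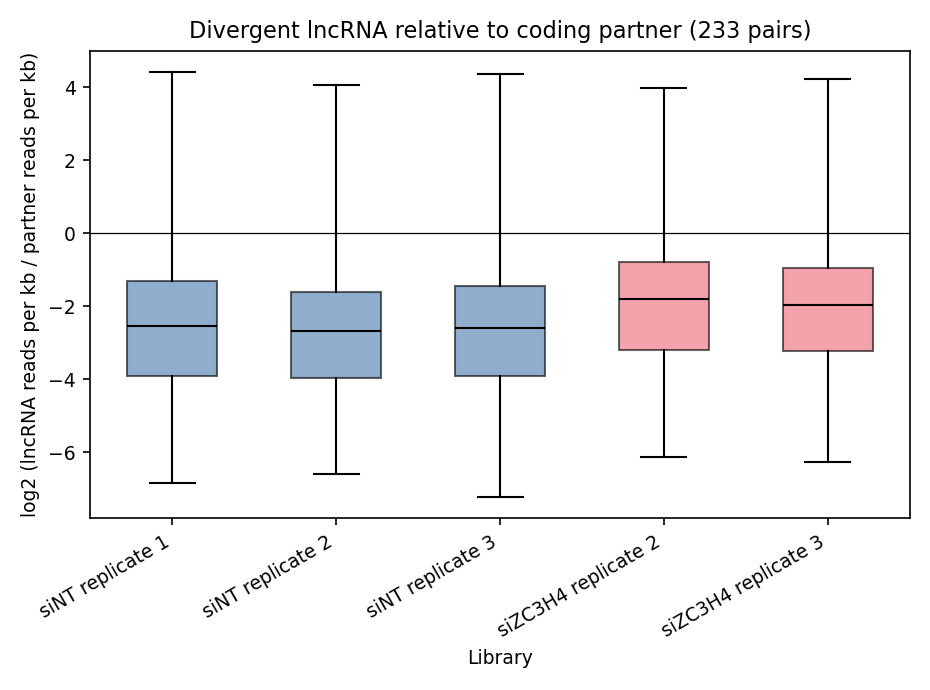
Log2 of reads per kilobase of the divergent lncRNA over reads per kilobase of its coding partner (vertical axis) in each of the 5 libraries, for 233 pairs; the line is the median, the box the interquartile range and the whiskers the lowest and highest pair. The medians lie between -2.69 and -2.54 in the siNT libraries and at -1.79 and -1.97 in the siZC3H4 libraries.

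A single coding partner fell. Trim35, a ubiquitin ligase gene, had 1545, 1423 and 1717 reads with siNT and 774 and 848 with siZC3H4, a log2 change of -0.94 (adjusted p = 0.0102). Its divergent lncRNA 1700001G11Rik (chr14:66295335-66296872, minus strand), whose start is 194 bases away, had 61.0, 80.0 and 44.4 against 206.6 and 145.3 reads, and rose by 1.51 ± 0.30 (adjusted p = 0.0339). The 2 sides moved in opposite directions, and the ratio changed by 2.45 ± 0.33 (adjusted p = 0.00162), the largest change among the 233 pairs. The 1 coding partner that rose was Mfsd4b4, of a transporter-like family, with 134, 105 and 93.9 against 400 and 281 reads and a change of 1.60 (adjusted p = 0.0122). Its lncRNA 4930547M16Rik had 20.0, 19.1 and 29.9 against 61.7 and 54.5 reads. Those groups did not overlap, and the change of 1.33 ± 0.32 did not pass the test (adjusted p = 0.0685). Both sides of that promoter were higher in the libraries labelled siZC3H4, and their ratio stood at -0.28 ± 0.38 (adjusted p = 0.644). Mfsd4b4 belongs to a family of close copies, between which reads may be shared.

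Upstream antisense RNA (uaRNA) is the unannotated counterpart of these lncRNAs, and the authors deposited a table of 5867 uaRNA regions, each named by its coding host gene. That table had almost no overlap with the pairs: 1 partner, Nfib, had a uaRNA region, while 50.0% of tested coding genes had one. Of the 1634 coding genes with a divergent start within 1 kb, 10 had a region. Nfib, a transcription factor of the nuclear factor I family, had 1360, 2066 and 1188 against 1893 and 1559 exon reads (0.20, not past the test). Its divergent lncRNA Gm11266 (chr4:82507282-82547292, plus strand) starts 785 bases away, among the larger distances here. Gm11266 had 37.0, 45.2 and 35.8 against 117.1 and 109.9 reads, and rose by 1.51 ± 0.25 (adjusted p = 0.0173). The Nfib uaRNA had 148, 207 and 193 against 340 and 339 reads, and rose by 0.91 ± 0.24 (adjusted p = 0.00112), in a table in which 62.1% of the regions tested rose. It lies on the strand of Gm11266 and may share reads with it. This call holds with the authors' depth factors only: with library totals made equal it was 0.34 (adjusted p = 0.247), and with the median region held equal, 0.018 (adjusted p = 0.961).

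The remaining lncRNAs that rose had changes of 0.65 to 1.66 on the log2 scale, and the 37 together ran from 1.57-fold to 5.57-fold. All 37 had both siZC3H4 libraries above all siNT libraries. The examples that follow were chosen after their values were seen, for the known roles of their partners. They stand for no gene group, nor for all partners. Of the 36 tested partners of lncRNAs that rose, 14 lay above 0. 1700122E12Rik had 72.0, 77.4 and 74.2 against 274.5 and 192.2 reads beside the chaperone gene Calr, which stood at -0.24. Gm10069 had 86.0, 81.7 and 81.1 against 171.5 and 172.1 beside Fkbp4, a co-chaperone, at -0.37. Gm12279 had 146, 122.6 and 143.3 against 421.6 and 422.6 beside the ubiquitin gene Ubb at -0.13. Gm11457 had 599, 656 and 584 against 993 and 929 beside Ube2c, a ubiquitin-conjugating enzyme of mitosis, at -0.22. In these pairs the lncRNA rose and the partner's change did not pass the test.

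Gm35986 had 84.0, 77.4 and 59.7 against 176.0 and 150.1 reads beside Elovl6, a fatty acid elongase, at -0.50, and Gm26608 had 127, 135.7 and 105.8 against 246.7 and 256.2 beside Insig1, a sterol sensor, at -0.29. 4930513N10Rik had 196, 246 and 243 against 510 and 471 reads next to Cnot1, the scaffold of the deadenylase complex, at -0.04. Gm26594 had 38.0, 29.6 and 35.8 against 105.8 and 82.2 next to the splicing factor gene Prpf3, at -0.06. Gm45494 had 35.0, 25.2 and 37.5 against 120.0 and 74.6 next to Yap1, the Hippo pathway coactivator, at 0.08. E030042O20Rik had 138, 113 and 127 against 253 and 243 next to the oxidative stress regulator Nfe2l2, at -0.21. For each of these 6 the ratio to the partner was higher as well.

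Gm42997, Gm37933 and Gm44777, which face ribosomal protein genes and were also chosen after their values were seen, did not pass the test on exon reads. Gm42997 beside Rpl34 had 118, 126 and 131 against 193 and 192 reads (0.62 ± 0.19). Gm37933 beside Rps3a1 had 79.0, 60.9 and 49.5 against 107.5 and 84.1 (0.61 ± 0.28). Gm44777 beside Rps13 had 268, 269 and 210 against 236 and 198 (-0.19 ± 0.19). The first 2 had separate groups and the third did not. Per kilobase these 3 lncRNAs stood at 1.64%, 1.09% and 4.20% of their partners in the siNT mean.

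The limits of the set were as follows. Gm9929 (915 bases from Atf6; 53.0, 35.7 and 91.3 against 61.1 and 66.0 reads) and 0610009E02Rik (877 bases from Sec16a; 105, 92.2 and 154 against 115 and 153) were the pairs just inside 1 kb. AI480526 was just outside, 1152 bases from the histone methyltransferase gene Setd1b, with 794, 902 and 1026 against 1480 and 1402 reads. Gm16230, beside Nemp1, was just inside the minimum level with a mean of 10.0 reads (4.00, 6.09 and 2.56 against 20.4 and 17.2). A530072M11Rik, beside Ripk2, was just outside with 9.98 (3.00, 8.70 and 11.9 against 9.05 and 17.2).

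Divergent lncRNAs too low for the test were also counted. There were 37 with a mean under 10 reads. Their reads summed to 152, 129 and 161 in siNT replicates 1, 2 and 3, and to 271 and 281 in siZC3H4 replicates 2 and 3. In 11 of the 37 both siZC3H4 libraries lay above all siNT libraries and in 0 below, where this held for 21.8% and 6.6% of the 606 genes of the table under that mean. 2810414N06Rik, beside Edem3, a mannosidase of the endoplasmic reticulum, had 2.00, 3.48 and 5.12 against 18.1 and 13.4 reads. 6720483E21Rik, beside Paqr8, had 3.00, 0.870 and 2.56 against 8.49 and 10.5. Both were chosen after their values were seen, and neither was tested.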

How the data were processed

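TT-seq libraries were made with a stranded kit, per the labels' protocols. The submitters' processing notes name cutadapt 1.14, STAR, featureCounts and DESeq2 and the builds mm10 and dm6, without order or settings. The authors deposited depth-normalized signal per gene, counted over exons, and per uaRNA region, with transcript length (unit other) per the file headers. Multiplying each deposited signal by a depth factor gave back whole read counts (1, 1.15, 1.172, 1.767 and 1.046, siNT 1 to 3 and siZC3H4 2 and 3; 100% of values whole within 0.01 reads). The labels do not say how the factors were obtained.

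Starts and strands came from the deposited table. Tests used limma 3.58.1 in R 4.3.3 on log2(value + 1), lmFit and eBayes with a trend, siZC3H4 minus siNT, over the 12482 genes with a mean of 10 or more; fold changes on this scale understate those of low genes. Benjamini-Hochberg adjusted p-values under 0.05 passed. Ratios were tested likewise over the 924 divergent pairs. "Rose" and "fell" mean past the threshold, and ± is limma's SE. In bulk RNA, fewer cells and less RNA per cell cannot be told apart. The fits were tested on simulated data. edgeR 4.0.16 and DESeq2 1.42.0 were run on the recovered counts as alternatives, with other scalings, pseudocounts, minimum levels and distances and each library left out. The lncRNAs and lists were chosen with earlier results of these data known. The named lncRNAs are the 10 largest rises past the threshold without overlap, the 6 with most reads overall and the 6 among those not past it, those with a partner or partner uaRNA past it, and those next to the limits; others are marked as chosen after their values were seen.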

Additional observations from a re-analysis of the deposited data

How the results depend on the processing

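The median log2 fold change of the divergent lncRNAs (0.55) lay between 0.49, at a mean of 50 or more, and 0.59, among those overlapping no other gene (an alternative chosen after seeing the data). That of the partners (-0.02) lay between -0.06 and 0.04, and no change of a named lncRNA past the threshold reversed. Counts past the threshold moved more. The share of all genes that rose is given above for DESeq2 and for the fits without 1 library. Other shares over all genes or pairs were not counted for the alternative fits named below. Against 37 lncRNAs that rose, DESeq2 called 56 and a fit with no minimum level 6; leaving out 1 library gave 0 to 67, and none fell in those fits. Against 74 ratios higher and 0 lower, leaving out 1 library gave 27 to 83 higher and 0 to 1 lower, and the median ratio change of 0.60 was 0.49 among genes with a mean of 50 or more. Against 1 partner that rose and 1 that fell, DESeq2 gave 4 and 2, no minimum level 0 and 0 (limma; 12 and 15 at an unadjusted p under 0.05 in the reported fit), a fit without the trend 2 that rose, a 2 kb distance 2 that fell, and leaving out 1 library 0 to 6 and 0 to 3. The Nfib uaRNA stood at 0.043 (adjusted p = 0.909) under TMM, 0.34 (0.247) with equal totals and 0.018 (0.961) with the median of ratios, where the whole uaRNA shift is scaled away. Zc3h4 stood between 0.95 and 1.07 without 1 library, past the threshold in 3 of 5 such fits. Among lncRNAs named by rule, 282 values under alternatives kept their side of the threshold, 48 lost the call, 3 gained it and 0 reversed.

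Replicate numbers 2 and 3 occur in both groups, and the labels do not say that they pair samples. Same-numbered libraries deviated together (r = 0.53 for number 2 and 0.62 for number 3). The 2 siZC3H4 libraries deviate from their own mean by equal and opposite amounts, so both r values rest on the same contrast. That is too little to take the numbers as pairing. With the replicate number as a block, 112 lncRNAs rose, 2 fell, 139 ratios were higher and 5 lower, and 17 partners rose and 25 fell. The share of all genes or pairs past the threshold was not counted in this fit, so these counts have no background beside them. Replicate 1 occurs in siNT alone and adds nothing to the block comparison. The median log2 fold change of the lncRNAs was thus 0.56, as in the fit without siNT replicate 1, where 0 rose. All 37 lncRNAs that rose without the block also rose with it. The cause of these differences was not tested.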
